A study of Homo sapiens with 6 samples.

Results

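The sirtuins SIRT1 to SIRT7 are the NAD-dependent (class III) deacetylases. They were taken as the 7 rows of the deposited expression table whose Ensembl identifiers map to these symbols, of 29810 genes in all, and all 7 were found. The table holds mRNA-seq of 6 libraries of Kasumi-1 cells, a human AML line with the t(8;21) translocation that forms the RUNX1-RUNX1T1 fusion. Of these, 3 libraries came from control cultures and 3 from cultures given 0.25 μM I3, an HDAC inhibitor, each for 48 h by the labels. A legend of the study gives a longer time for these cells, and the name of the deposited table spells the compound differently, so the labels were followed. The methods describe the control as DMSO at the concentration of the I3 solution. All libraries come from 1 cell line, and nothing in the labels says whether replicates were separate cultures. The methods say in general that experiments were repeated 3 times, without naming the libraries. The spread between the libraries may therefore be technical.

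Sirtuins remove acetyl and other acyl groups from lysines and use NAD as a co-substrate, which they split and release as nicotinamide. The other histone deacetylases (classes I, II and IV) hold a zinc ion in the active site, which hydroxamate inhibitors such as SAHA bind. Sirtuins have no such ion in the catalytic step, and these inhibitors do not act on them directly. SIRT1, SIRT6 and SIRT7 are mainly nuclear, SIRT2 is mainly cytosolic, and SIRT3, SIRT4 and SIRT5 are mitochondrial. The comparison asks whether the mRNA of these enzymes differed between I3 and control cells.

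No sirtuin mRNA passed the test for a difference between I3 and control cells. Log2 fold changes ran from -0.12 for SIRT6 to 0.043 for SIRT3. SIRT1 had the highest FPKM of the family and SIRT4 the lowest, with about 10 reads in a library. Of the 6 sirtuins with a mean of at least 0.5 FPKM, 0 passed limma at an adjusted p of 0.05 with at least 0.58 on the log2 scale, as did 0 of all 12960 genes tested (0%). At an unadjusted p under 0.05 the count was also 0 of 6, beside 639 genes (4.93%) of those tested, 2.08% higher and 2.85% lower after I3. With voom on reads rebuilt from FPKM no gene passed the adjusted p either, and 664 of 13605 genes (4.88%) had an unadjusted p under 0.05, none of them a sirtuin. The study, with DESeq at an adjusted p of 0.05 and 0.58 on the log2 scale, did report changed genes in both directions. Some of those genes were checked there by RT-PCR and western blotting. The I3 and control values overlapped for all 7 sirtuins, whereas 9.7% of the genes tested had no overlap between groups (5.06% higher and 4.64% lower after I3). In bulk RNA, fewer cells that express a gene and less RNA per cell cannot be told apart.

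FPKM are fragments counted per kilobase of annotated exon, scaled to the depth of the library. Each sirtuin value was a whole number of reads once multiplied by exon length and depth, so the reads behind it could be given. Depth was estimated for each library as the number that made FPKM times exon length come out in whole reads. This estimate was 17500323 to 17798680 reads in control libraries and 17794813 to 18193372 in I3 libraries. Of 8 markers chosen for Kasumi-1 cells, among them the general leukocyte gene PTPRC, all were expressed. They ran from 4.97 FPKM for POU4F1 to 8106 FPKM for MPO. Among the markers of other cells reported here, CD3E, COL1A1 and CD14 were at or near 0, with 0 CD14 reads in each I3 library. The study used CD14 as a differentiation marker and reported more of it on Kasumi-1 cells after I3. That was by flow cytometry, which measures surface protein and not RNA, at a later time. The epithelial antigen EPCAM had 30.0 FPKM. EPCAM had 29.7 ± 1.26 FPKM (SD, n = 3) in control and 30.3 ± 1.88 FPKM (SD, n = 3) in I3 libraries.

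**Figure D1:**
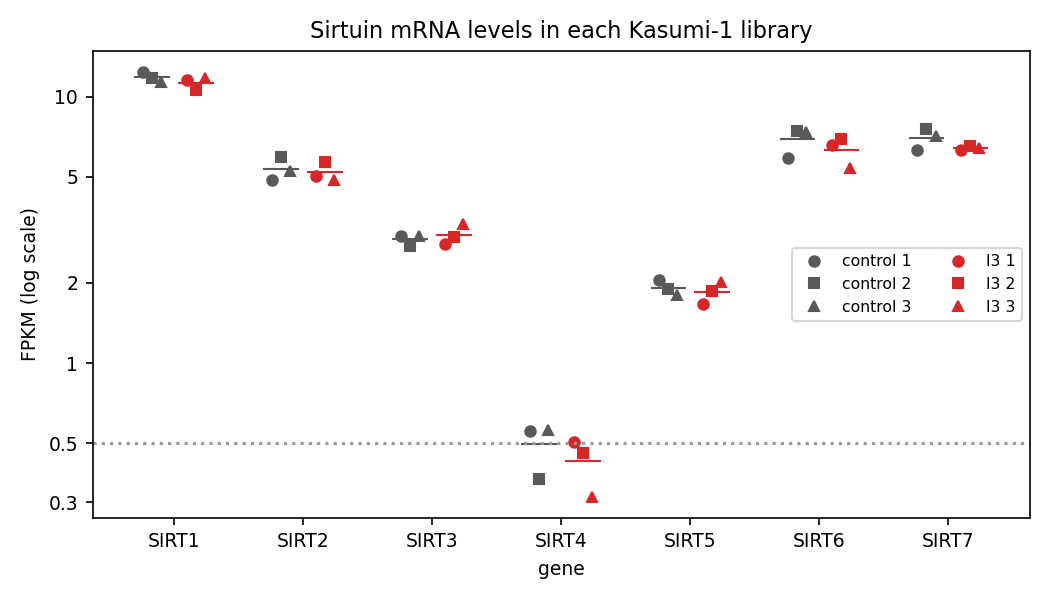
FPKM of each sirtuin (log scale) in 3 control (grey) and 3 I3 (red) libraries, with the marker shape giving the replicate number, a bar for the group mean and a dotted line at the minimum of 0.5 FPKM. The groups overlap for every sirtuin, and SIRT4 lies near or below the minimum in all 6 libraries.

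SIRT1 deacetylates p53, FOXO factors, NF-κB and histones. The gene (ENSG00000096717) lies on chromosome 10 of GRCh38 from 67884669 to 67918390 on the plus strand. Its level was 12.4, 11.8 and 11.4 FPKM in control 1, 2 and 3, and 11.6, 10.6 and 11.7 FPKM in I3 1, 2 and 3. Control 1 was highest and I3 2 lowest, and I3 1 and I3 3 lay above control 3. The log2 fold change was -0.067 (SE 0.0664, limma adjusted p = 0.998), and its 95% interval corresponds to a level 0.857 to 1.06 times that of control cells. SIRT1 rests on 859 to 997 reads in a library.

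The SIRT1 promoter, the start of the family's gene with the highest FPKM, is shown for comparison with that of SIRT4, the lowest. The RefSeq sequence (GRCh38.p14, chr10:67884406-67884705, plus strand) runs from 250 bases before the start to 50 after it. Capitals mark motifs on either strand, of which none overlaps another. The GC box was searched as GGGCGG and the E-box as CACGTG. The TATA box was searched as TATAAA, and the fourth motif, by the letters of its name, was the CCAAT box.
SIRT1: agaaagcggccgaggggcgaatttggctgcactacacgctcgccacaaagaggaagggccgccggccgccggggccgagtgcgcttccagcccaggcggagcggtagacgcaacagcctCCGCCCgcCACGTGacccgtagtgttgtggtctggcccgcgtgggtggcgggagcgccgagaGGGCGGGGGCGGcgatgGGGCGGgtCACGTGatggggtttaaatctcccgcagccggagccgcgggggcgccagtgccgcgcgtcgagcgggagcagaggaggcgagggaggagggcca
It holds 4 GC boxes and 2 E-boxes, has a GC content of 72.7% and 39 CpG dinucleotides. Of the 35116 promoter sequences in the table, 45.0% hold a GC box and 7.26% an E-box, and the median promoter has 14 CpG. Such matches are descriptions of the letters and not binding sites.

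SIRT6 deacetylates histone H3 at lysines of telomeric and glycolytic gene chromatin. The gene (ENSG00000077463) lies on chromosome 19 from 4174109 to 4182604 on the minus strand. Control libraries 1, 2 and 3 had 5.91, 7.46 and 7.38 FPKM, and I3 libraries 1, 2 and 3 had 6.60, 6.92 and 5.42 FPKM. The lowest value was that of I3 3 and the next lowest that of control 1. The log2 fold change of -0.12 (SE 0.120, limma adjusted p = 0.998) was the furthest from 0 in the family, and its interval spans 0.756 to 1.12 times the control level. Without I3 3 the log2 fold change was -0.024.

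SIRT7, found in the nucleolus, acts on RNA polymerase I transcription and on histone H3. The gene (ENSG00000187531) lies on chromosome 17 from 81911939 to 81921323 on the minus strand, and 105 nt of its exons overlap MAFG on the same strand. Its values were 6.32, 7.59 and 7.11 FPKM in control 1 to 3, and 6.29, 6.56 and 6.42 FPKM in I3 1 to 3. The I3 libraries lay close together, and only control 1 fell into their range. SIRT7 had 7.01 ± 0.639 FPKM (SD, n = 3) in control and 6.43 ± 0.132 FPKM (SD, n = 3) in I3 cells. The log2 fold change was -0.11 (SE 0.0793, limma adjusted p = 0.998, exact permutation p = 0.3, where 0.1 is the smallest that 3 against 3 libraries allow). Over all reads the ratio of I3 to control was 0.917, with an exact binomial 95% interval of 0.864 to 0.973. This interval covers counting error only, and the control libraries spread more than counting error, with a chi-square per degree of freedom of 6.36 (1 is counting error alone).

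SIRT2 deacetylates α-tubulin and proteins of mitosis. The gene (ENSG00000068903) lies on chromosome 19 from 38878555 to 38899862 on the minus strand. It had 4.86, 5.94 and 5.26 FPKM in control 1 to 3 and 5.05, 5.70 and 4.87 FPKM in I3 1 to 3. In both groups replicate 2 was highest, and the groups covered nearly the same range. The log2 fold change was -0.035 (SE 0.0953, limma adjusted p = 0.998), or 0.836 to 1.14 times the control level. Its sign turned to 0.036 without control 2.

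SIRT3 is the main deacetylase of the mitochondrial matrix and acts on enzymes of oxidative metabolism. The gene (ENSG00000142082) lies on chromosome 11 from 215458 to 236931 on the minus strand, and 6.08% of its exon length overlaps PSMD13 on the opposite strand. Control 1, 2 and 3 had 3.00, 2.75 and 3.01 FPKM, and I3 1, 2 and 3 had 2.79, 2.98 and 3.32 FPKM. The highest value was that of I3 3, and the other I3 libraries lay within the control range. SIRT3 was the sirtuin with a mean above that of control cells, by a log2 fold change of 0.043 (SE 0.0898, limma adjusted p = 0.998), which became -0.014 without I3 3. The interval spans 0.890 to 1.19 times the control level.

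SIRT5 removes malonyl, succinyl and glutaryl groups from mitochondrial and cytosolic enzymes. The gene (ENSG00000124523) lies on chromosome 6 from 13574529 to 13615158 on the plus strand, and 16.1% of its exon length overlaps an antisense gene. Whether counting used strand is not known, so reads of SIRT3 or SIRT5 and of these opposite-strand genes may not be told apart. It had 2.05, 1.89 and 1.81 FPKM in control 1 to 3 and 1.66, 1.87 and 2.01 FPKM in I3 1 to 3. I3 1 was the lowest library, and the other 2 I3 values lay among the controls. The log2 fold change was -0.044 (SE 0.104, limma adjusted p = 0.998), or 0.818 to 1.15 times the control level, and it was 0.013 without I3 1.

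SIRT4, a mitochondrial ADP-ribosyltransferase and lipoamidase that restrains glutamate dehydrogenase and pyruvate dehydrogenase, was at the limit of detection. The gene (ENSG00000089163) lies on chromosome 12 from 120302316 to 120313249 on the plus strand. Its values of 0.556, 0.368 and 0.561 FPKM in control 1 to 3 stand for 12, 8 and 12 reads, and those of 0.505, 0.460 and 0.315 FPKM in I3 1 to 3 for 11, 10 and 7 reads. The groups overlap, since only control 2 fell below I3 1 and I3 2. With a mean of 0.461 FPKM SIRT4 was under the minimum and was taken from the fit without one, where the log2 fold change was -0.10 (SE 0.157, limma adjusted p = 0.934). A pseudocount of 0.5 is as large as these values and shrinks that number. The ratio of all reads was 0.861 with an exact binomial interval of 0.50 to 1.48, and a difference within it was not detectable at this depth.

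The SIRT4 promoter from RefSeq (GRCh38.p14, chr12:120302071-120302370, plus strand) is shown beside that of SIRT1, with the same marks.
SIRT4: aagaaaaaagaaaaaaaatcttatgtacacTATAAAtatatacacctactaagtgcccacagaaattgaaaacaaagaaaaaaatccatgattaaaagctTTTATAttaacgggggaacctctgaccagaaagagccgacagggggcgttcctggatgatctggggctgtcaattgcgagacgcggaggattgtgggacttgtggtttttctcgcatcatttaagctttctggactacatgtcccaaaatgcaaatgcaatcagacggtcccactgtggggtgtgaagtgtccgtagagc
It holds 2 TATAAA matches, which 11.5% of all promoters also hold at least once, and none of the other motifs. Its GC content is 42.3% and it has 9 CpG, against 23 to 39 in the promoters nearest the annotated start of SIRT1, SIRT2, SIRT3, SIRT5 and SIRT6. RefSeq lists a second start of SIRT4, 10127 bases away, with 16 CpG. Promoter entries were found for 6 of the 7 sirtuins, without SIRT7.

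By FPKM, the order of the family was SIRT1 (11.6), SIRT7 (6.72), SIRT6 (6.62), SIRT2 (5.28), SIRT3 (2.98), SIRT5 (1.88) and SIRT4 (0.461), each the mean of 6 libraries. SIRT1 held 32.7% of the summed sirtuin FPKM on average, within 30.2% to 35.3% in single libraries. SIRT7 and SIRT6 did not differ beyond their spread, with a log2 ratio of 0.028 ± 0.126 (SD, n = 6) and SIRT7 ahead in 3 of 6 libraries. SIRT6 exceeded SIRT2 in 6 of 6 libraries, by a log2 ratio of 0.32 ± 0.113 (SD, n = 6), although the ranges over all libraries met. The ranges of all other neighbours lay apart. Among the genes tested, SIRT1 stood at percentile 72.0 of mean FPKM, SIRT7 at 56.8 and SIRT5 at 26.3.

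This order depends on the length by which the reads are divided. The deposited FPKM use all annotated exons of a gene, 6152 nt for SIRT7 and 6224 nt for SIRT2, of which the longest coding transcript covers 28.3% and 33.3%. For SIRT1 it covers 90.0% of 4551 nt. Divided by the longest coding transcript instead, SIRT7 came first with 23.7 ± 1.84 reads per kb at equal depth (SD, n = 6), ahead of SIRT2 with 15.9 ± 1.35 and SIRT1 with 12.9 ± 0.651 on the same scale. SIRT6 followed with 11.2 ± 1.38, and SIRT3, SIRT5 and SIRT4 kept the last places. In reads alone SIRT1 had 938 in a library on average, SIRT7 735 and SIRT2 585. The transcripts in use were not measured here, so the place of SIRT1 against SIRT7 and SIRT2 cannot be set from these values. SIRT4 was last on both scales.

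**Figure D2:**
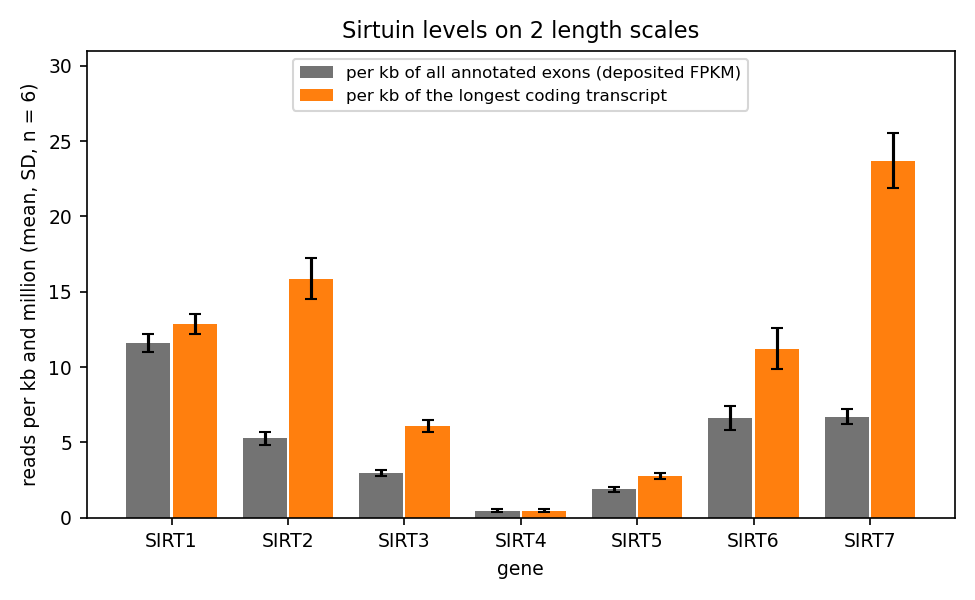
Mean level of each sirtuin over 6 libraries with SD, in reads per kb scaled to depth, with the length of all annotated exons (grey, the deposited FPKM) or of the longest coding transcript (orange). SIRT1 leads on the first scale with 11.6 and SIRT7 on the second with 23.7, and SIRT4 is lowest on both.

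Little sequence of the sirtuin transcripts recurred in other genes. Of the stretches of 50 nt in sirtuin transcripts of GENCODE 29, 0 were shared between 2 sirtuins. SIRT1, SIRT3, SIRT4 and SIRT6 shared none with any other gene, while SIRT2 shared 1.14%, SIRT5 1.21% and SIRT7 0.864%, the last all with MAFG.

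The limma intervals show how large a difference the spread between these libraries leaves possible. That spread may be technical, as said above, so the intervals may not bound a difference between separate cultures. All 6 sirtuins tested had a 95% interval within 0.58 on both sides, the fold threshold of the study's methods, as did 81.6% of the genes tested. The interval of SIRT4 also lay within it, from -0.49 to 0.28, but on the shrunken scale described above. Of the 6 tested sirtuins 5 had a mean below that of control cells, where 45.8% of all genes tested did, and the median log2 fold change was -0.056 beside 0.011 over all genes tested. The summed FPKM of the 7 sirtuins was 36.5 ± 1.34 (SD, n = 3) in control and 34.6 ± 0.50 (SD, n = 3) in I3 cells. The 3 I3 sums lay below the 3 control sums, but the highest I3 library (35.09) and the lowest control library (35.11) were nearly equal, and the sum was not tested.

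**Figure D3:**
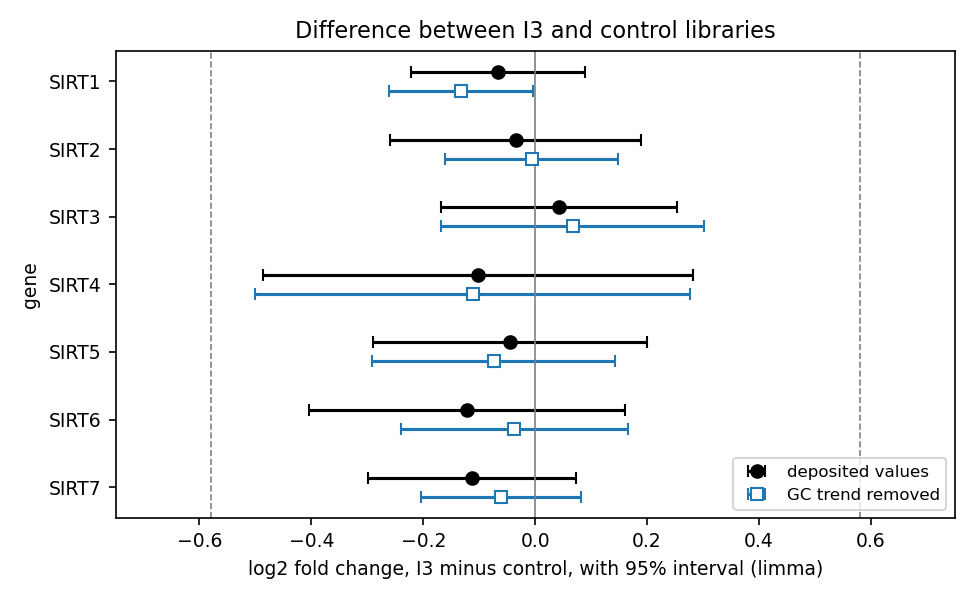
Log2 fold change of each sirtuin, I3 minus control, with its 95% interval from limma, for the deposited values (black circles) and after removal of each library's GC trend (blue squares), with dashed lines at 0.58 in either direction. Intervals include 0 except that of SIRT1 after removal of the trend, and all stay inside the dashed lines.

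Sirtuin transcripts range widely in GC content, from 39.2% in SIRT1 and 45.6% in SIRT5 to 61.9% in SIRT7 and 65.5% in SIRT6. The libraries differed in how levels followed GC content. Over 12939 genes, the rank correlation of a library's deviation from the gene mean with GC content was between -0.446 and -0.232 in control 1, I3 1 and I3 3, and between 0.262 and 0.446 in control 2, control 3 and I3 2. GC-rich SIRT6 deviated by -0.14 in control 1 and -0.26 in I3 3 on the log2 scale, and by 0.17 and 0.16 in control 2 and 3. SIRT2 and SIRT7 were likewise low in control 1 and I3 3 and high in control 2. But SIRT7 was lowest in I3 1, at -0.084, and also lay below its mean in I3 2, at -0.029, where the correlation over all genes was 0.262. GC-poor SIRT1 was highest in control 1, at 0.096, and lowest in I3 2, at -0.12. Over the 7 sirtuins, the rank correlation with GC content had the sign of that over all genes in 5 of 6 libraries, I3 1 being the exception at 0.071.

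Before removal of the GC trend from each library, the pooled SD within groups on the log2 scale was 0.0677 for SIRT1 and 0.174 for SIRT6. After it, the SD of SIRT1 was 0.0805 in control and 0.0120 in I3 libraries, so only the I3 values lay closer together than that. The SD of SIRT6 became smaller in both groups, at 0.134 in control and 0.0961 in I3 libraries. For SIRT3 the spread became larger, from a pooled SD of 0.0879 to an SD of 0.110 in control and 0.140 in I3 libraries. The result depends on the genes used to fit the trend. With all genes that had reads, the pooled SD after removal was 0.0352 for SIRT1, 0.140 for SIRT6 and 0.108 for SIRT3. The corrected SIRT1 values were 11.4, 12.8 and 12.3 on the FPKM scale in control 1 to 3 and 11.1, 11.0 and 11.0 in I3 1 to 3. All 3 I3 values then lay below all 3 controls, as did those of 5.62% of the genes tested. SIRT1 was then the 1 sirtuin with an unadjusted p under 0.05, as were 5.88% of the genes tested. Its difference on the log2 scale became -0.13 with an interval of -0.26 to -0.0034, which did not pass (limma adjusted p = 0.844, exact permutation p = 0.1). For SIRT6 and SIRT7, the differences shrank to -0.037 and -0.062. The part of the GC trend in the uncorrected differences was not tested beyond these values.

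**Figure D4:**
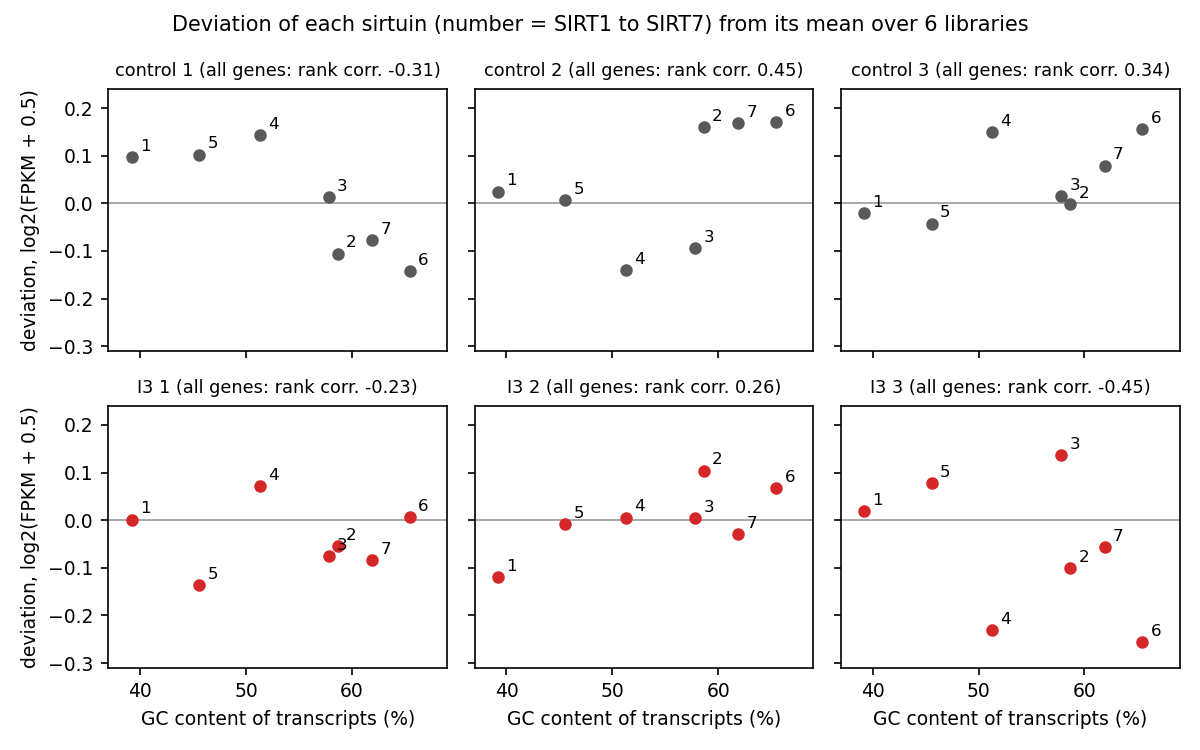
Deviation of each sirtuin (numbered 1 to 7) from its mean over 6 libraries in log2(FPKM + 0.5), against the GC content of its transcripts, in 3 control (grey) and 3 I3 (red) libraries, with the rank correlation over all tested genes above each panel. GC-rich SIRT6 and SIRT7 lie below 0 in control 1 and I3 3 and above it in control 2 and control 3. SIRT7 also lies below 0 in I3 1 and I3 2.

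NAD supply limits sirtuin activity, so genes of NAD metabolism were examined next. Of 18 genes of NAD synthesis, phosphorylation and transport analysed, 11 had a mean of at least 0.5 FPKM and 0 passed the test. The median log2 fold change of these 11 was -0.053, beside 0.011 over all genes tested. NAMPT, the rate-limiting enzyme of NAD salvage, had 9.10 ± 1.71 FPKM (SD, n = 3) in control and 8.45 ± 0.404 FPKM (SD, n = 3) in I3 cells. Among the 11 tested genes 1 had groups that did not overlap, beside 9.7% of all genes tested. This was NMNAT1, the nuclear enzyme that completes NAD, with 2.65 ± 0.215 and 2.89 ± 0.164 FPKM (SD, n = 3 each) and a log2 fold change of 0.11. NAPRT, which starts NAD synthesis from nicotinic acid, had the smallest unadjusted p of the tested members and a log2 fold change of -0.17 (SE 0.115, limma adjusted p = 0.998). AFMID, an enzyme of NAD synthesis from tryptophan, was next with 0.072. NMRK2, TDO2 and IDO2 had 0 reads in all libraries.

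Other enzymes that use NAD are known to compete with sirtuins for it. Of 10 genes of NAD use and nicotinamide turnover 8 were tested, 0 passed, and the median log2 fold change was 0.043. PARP1, the main poly-ADP-ribose polymerase of DNA repair, had 53.9 ± 2.25 FPKM (SD, n = 3) in control and 53.9 ± 2.46 FPKM (SD, n = 3) in I3 cells. CD38, a surface NAD glycohydrolase, was low at 0.921 ± 0.283 and 0.901 ± 0.257 FPKM (SD, n = 3 each). The I3 libraries lay above the controls for TNKS and PARP4, by log2 fold changes of 0.11 and 0.050. So 2 of 8 genes did not overlap (9.7% of all genes tested), and both were higher (5.06% of all genes tested).

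Among proteins known to regulate SIRT1, 7 of 8 genes were tested and 0 passed. RPS19BP1, which encodes the SIRT1 activator AROS, had 15.2 ± 0.166 FPKM (SD, n = 3) in control and 13.5 ± 0.838 FPKM (SD, n = 3) in I3 cells without overlap. Its log2 fold change was -0.17 (SE 0.0627, limma adjusted p = 0.970), and it was 1 of 7 tested members with an unadjusted p under 0.05 (4.93% of all genes tested) and without overlap (9.7%). CCAR2, the SIRT1 inhibitor DBC1, had 15.3 ± 0.772 and 15.0 ± 0.562 FPKM (SD, n = 3 each). PRKAA1, a catalytic subunit of AMPK, had a log2 fold change of 0.21 with groups that overlapped (limma adjusted p = 0.998).

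Sirtuin substrates were examined by compartment. Of 19 tested nuclear and cytosolic substrates 0 passed and 0 had groups that did not overlap, and their log2 fold changes ran from -0.12 to 0.081. BUB1B, a mitotic checkpoint kinase kept stable by SIRT2, and the heat shock factor HSF1 had the smallest unadjusted p, with log2 fold changes of -0.067 and -0.12. Of 15 tested mitochondrial substrates 0 passed, with a median log2 fold change of -0.027. ACSS1, the mitochondrial acetyl-CoA synthetase that SIRT3 activates, was 1 of 15 tested members without overlap (9.7% of all genes tested), with 11.4 ± 0.347 FPKM (SD, n = 3) in control and 10.3 ± 0.728 FPKM (SD, n = 3) in I3 cells. PPIF, the pore regulator cyclophilin D, had a log2 fold change of -0.15 with groups that overlapped.

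SIRT6 is known to repress glycolytic genes. Of 5 such genes tested, 0 passed and the median log2 fold change was -0.11. LDHA, which makes lactate, had 127, 111 and 108 FPKM in control 1 to 3 and 103, 107 and 104 FPKM in I3 1 to 3, and was 1 of 5 tested genes without overlap (9.7% of all genes tested). Its log2 fold change was -0.14 (limma adjusted p = 0.998). SLC2A1, the glucose transporter GLUT1, had a log2 fold change of -0.11 with groups that overlapped. The list's lowest log2 fold change was that of ALDOC, an aldolase, at -0.37, where control 1 alone stood apart. ALDOC had 5.34, 1.96 and 2.07 FPKM in control 1 to 3 and 2.49, 1.84 and 1.95 FPKM in I3 1 to 3, so that the other controls lay within the I3 range.

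**Figure D5:**
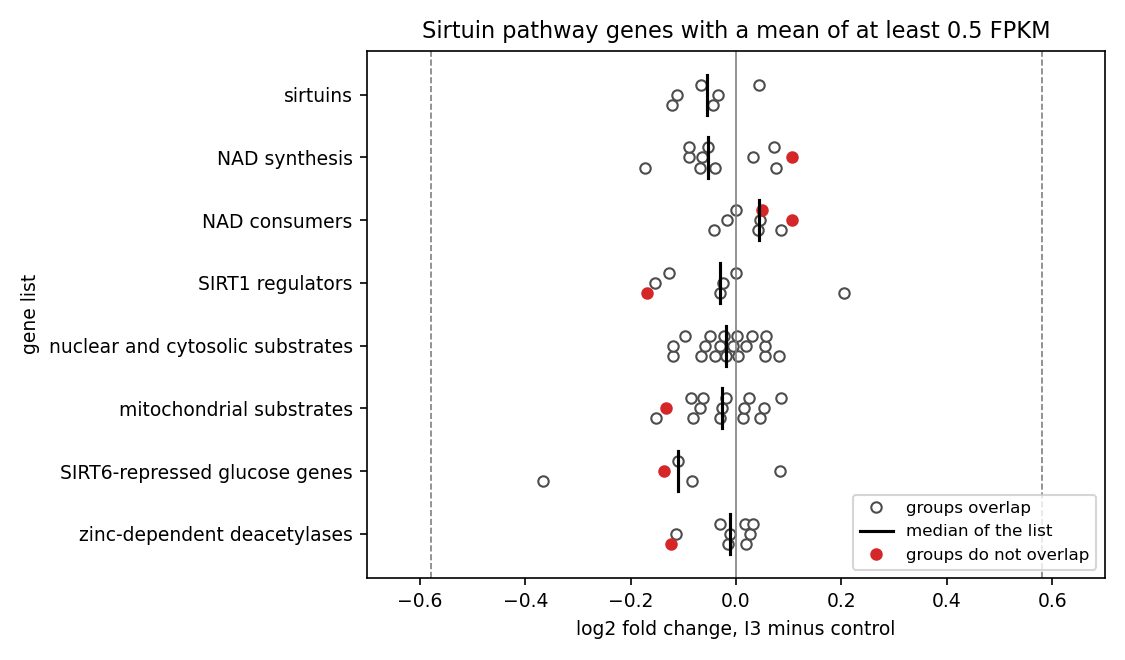
Log2 fold change, I3 minus control, of each tested gene in 8 lists, with filled points where the groups do not overlap, a bar at the median of the list and dashed lines at 0.58 in either direction. No gene reaches a dashed line, and the list medians lie between -0.11 and 0.043.

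The zinc-dependent deacetylases, which HDAC inhibitors bind, were examined for comparison. HDAC1 alone had 44.8 ± 1.74 FPKM (SD, n = 3) in control cells, above the summed FPKM of the 7 sirtuins in each library, and HDAC2 had 16.8 ± 1.72 FPKM (SD, n = 3). The HDAC genes were not set on the scale of the longest coding transcript, so this order holds for FPKM only. Of 9 tested HDAC genes 0 passed, with a median log2 fold change of -0.012, and 1 had groups that did not overlap (9.7% of all genes tested). This was HDAC6, a cytosolic deacetylase that, like SIRT2, acts on α-tubulin. HDAC6 had 6.25, 6.91 and 6.09 FPKM in control 1 to 3 and 5.94, 5.97 and 5.61 FPKM in I3 1 to 3, a log2 fold change of -0.12 (SE 0.0729, limma adjusted p = 0.998). HDAC7, a class IIa enzyme, was next in unadjusted p with -0.11 on the log2 scale. The difference in log2 fold change between the families was not tested.

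The genes whose levels across the 6 libraries were most like those of a sirtuin were sought among genes with a mean of at least 5 FPKM, by Pearson's r of log2(FPKM + 0.5). For SIRT1 they were H1F0 (r = 0.984) and SDAD1 (r = 0.974), and for SIRT2 ST3GAL4 (r = 0.996) and UBQLN4 (r = 0.995). SIRT3 was most like ZDHHC3 (r = 0.986) and CTSC (r = 0.984), and SIRT4 like DENND1C (r = 0.975) and SNAP23 (r = 0.955). The closest to SIRT5 were AKIRIN2 (r = 0.990) and CTBP2 (r = 0.989), to SIRT6 CHMP2A (r = 0.995) and EIF2AK1 (r = 0.994), and to SIRT7 NUDC (r = 0.986) and HM13 (r = 0.984). These are the highest of 6639 or 6640 genes compared over only 6 libraries, and no test is attached. For SIRT2, 122 genes had an r above 0.95, and the libraries share the GC trends described above.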

How the data were processed

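mRNA-seq of 3 control and 3 I3 libraries was analysed, with conditions and replicate numbers from the sample labels. The submitters' processing notes name Trimmomatic, HISAT2, Cufflinks and HTSeq and the build hg38, without versions, and no source used here names the annotation. Per the labels the kit was a stranded mRNA kit, and whether counting used strand is not given. The authors deposited FPKM, 1 column per library. Identifiers were matched to GENCODE 29 on GRCh38 (29703 of 29810). The members and lists were chosen with earlier results of these data known.

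Reads were rebuilt as FPKM times exon length and the estimated depth, and all 6 values were whole within 0.1 read for 95.8% of 26519 genes. The study's count test was replaced by limma 3.58.1 (R 4.3.3, eBayes with trend, Benjamini-Hochberg adjustment), two-sided, on log2(FPKM + 0.5) for genes averaging 0.5 FPKM or more. A fold change on this scale understates that of low genes. Exact permutation tests were two-sided (Python 3.11.15, scipy 1.17.1 for intervals). GC trends were removed with lowess (span 0.3) on the median GC content of a gene's transcripts. Voom was run on genes averaging 10 reads or more. No library duplicated another of its group (chi-square per degree of freedom 4.93 or more between any 2). The procedure was tested on simulated data. Named genes are the sirtuins, in each list the 2 to 4 tested genes with the smallest unadjusted p, NAMPT, PARP1, CD38 and CCAR2, and the 2 genes most like each sirtuin. HDAC1 and HDAC2, genes without reads, markers and genes called with a library left out are outside that rule and were named after their values were seen. Alternatives were other pseudocounts, minimums, scalings, eBayes without trend, the replicate block, the GC correction, voom and each library left out. The result of 1 marker of other cells is not reported here.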

Additional observations from a re-analysis of the deposited data

How the results depend on the processing

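Of 129 log2 fold changes of the 7 sirtuins under alternative settings, 125 kept their direction. Part of this count was fixed in advance. Another minimum, eBayes without trend and the replicate block cannot change a fold change, only its p. None of the 129 passed the thresholds, with a smallest adjusted p of 0.435 from limma. With single libraries left out, SIRT2 ranged from -0.097 to 0.036 (turning without control 2 and without I3 3), SIRT3 from -0.014 to 0.092 (turning without I3 3) and SIRT5 from -0.094 to 0.013 (turning without I3 1). SIRT1 ranged from -0.094 to -0.024, SIRT4 from -0.20 to -0.012, SIRT6 from -0.22 to -0.024 and SIRT7 from -0.18 to -0.057. Over all genes, 0 to 1 were then higher and 0 to 2 lower, namely SNORD101 without control 1, CHCHD10 and EBPL without I3 1 and ENSG00000265982 without I3 2, named after their values were seen. With all 6 libraries each setting called 0 genes. Removal of the GC trend raised the number of sirtuins without overlap from 0 to 1, which was SIRT1.

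With the longest coding transcript as length, the log2 ratio of SIRT1 to SIRT7 turned to -0.88 and that of SIRT6 to SIRT2 to -0.50, and the other ratios moved to 1.08 (SIRT7 to SIRT6), 1.38 (SIRT2 to SIRT3), 1.12 (SIRT3 to SIRT5) and 2.62 (SIRT5 to SIRT4), by construction. The ratio of SIRT7 to SIRT6 ranged from -0.016 to 0.048 with single libraries left out, and turned without I3 3.

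Correlations of deviations between control and I3 libraries were weak, at 0.0634, 0.151 and -0.0239 for replicate numbers 1, 2 and 3. Between libraries of unlike number they ran from -0.17 (control 1 with I3 2) to 0.101 (control 1 with I3 3). Whether the replicate numbers pair the libraries was not tested and is not settled by these values. With the replicate block 0 genes were called and the adjusted p of SIRT7, the smallest in the family, was 0.822. SIRT4 has no value with a minimum of 1 or 5 FPKM, nor SIRT3 and SIRT5 with 5. Depth limits SIRT4 most, at 7 to 12 reads in a library.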
